A study of Mus musculus with 12 samples.

Results

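The small leucine-rich proteoglycans are secreted proteins of the extracellular matrix, and 9 of their genes were followed here: Dcn, Bgn, Aspn, Lum, Fmod, Prelp, Kera, Omd and Ogn. A gene was represented by the probe set that carries its symbol and has the highest mean over the 12 arrays, and all 9 were found among 22180 genes tested. That mean chose the probe set for 3 genes with 2 probe sets (Prelp, Fmod and Bgn), and the other 6 genes had 1. The probe sets were thus chosen by their level over all groups, and the genes as a family whose levels across these groups were already known. All RNA came from embryonic fibroblasts of the mouse, either Gdap1-null (KO) or wild type (WT). The 4 groups of 3 arrays were KO cells at day 4 after expression of the reprogramming factors Oct4, Sox2, Klf4 and cMyc, KO cells not yet reprogrammed at day 0, and WT cells at the same day 4 and day 0. All were grown in DMEM with fetal bovine serum. The Gdap1 protein sits in the outer membrane of mitochondria and takes part in their fission, and the design sets its loss against the wild type before and early in reprogramming. The labels do not say how the null allele was made, how many embryos or cultures stand behind a group, or whether day 0 cells had a mock transduction, so p-values measure only the spread between these arrays, which may be technical.

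The core of these proteins is a curved stack of leucine-rich repeats that binds collagen, and most carry chains of chondroitin, dermatan or keratan sulfate. They set the diameter and spacing of collagen fibrils in skin, tendon, bone and cornea, and several bind growth factors, TGF-beta among them. Class I holds decorin (Dcn), biglycan (Bgn) and asporin (Aspn). Class II holds lumican (Lum), fibromodulin (Fmod), the proline- and arginine-rich Prelp, keratocan (Kera) and osteomodulin (Omd), and class III holds osteoglycin (Ogn). In the RefSeq gene table of GRCm38.p6 8 of the 9 lie in clusters, with Prelp beside Fmod on chromosome 1, Dcn, Lum and Kera in a row on chromosome 10, and Aspn, Omd and Ogn in a row on chromosome 13. No other protein-coding gene is listed between neighbours in these rows. Bgn lies on chromosome X.

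Levels are the authors' log2 values per probe set, and their differences are taken between arrays for 1 gene, never between genes. Between genes, levels are only ranked by the 12-array mean, to tell those near the floor from higher ones. The median of an array was 5.22 to 5.32. Mean Pearson correlations of an array with the others of its group, across genes, ran from 0.987 (WT day 4 array 1) to 0.997. Gdap1 gave 2.98 to 3.28 in KO day 4 arrays and 2.97 to 3.28 in KO day 0 arrays, against 2.82 to 3.15 in WT arrays at day 4 and 3.04 to 3.30 in WT day 0 arrays. Its probe set, at the 14.1 percentile of levels, lay under the 25th percentile taken here as near the floor, so it does not check the genotype (KO minus WT 0.16 ± 0.12 at day 4 and -0.08 ± 0.12 at day 0, SE, n = 3 per group, adjusted p = 0.395 and 0.831 in limma). None of the 9 genes had a 12-array mean near the floor (3.75), though Omd lay under that level in KO day 0 array 1 (3.72). All 12 fibroblast markers of a fixed list were at or above the 57.4 percentile.

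Between day 4 and day 0 the family moved in different directions. In KO cells 5 of the 9 genes rose (Dcn, Prelp, Kera, Omd and Ogn), none fell and 4 did not pass (an adjusted p under 0.05 in limma over all genes), where 30.8% of all genes passed in either direction, 13.8% higher and 16.9% lower. In WT cells 4 rose (Dcn, Lum, Prelp and Kera), 3 fell (Bgn, Aspn and Fmod) and 2 did not pass, where 22.9% of all genes passed, 11.1% higher and 11.7% lower. The arrays of the groups did not overlap for 7 of 9 genes in KO cells and for 7 of 9 in WT cells, against 45.3% and 36.3% of all genes. Members past the threshold with at least a 2-fold change numbered 4 in KO cells and 5 in WT cells, against 3.76% and 3.51% of all genes. The median change of the 9 was 0.99 in KO cells and 0.66 in WT cells, against medians over all genes of -0.01 and -0.01. Factor expression, transduction and time in culture cannot be told apart in this change. In bulk RNA, fewer cells of a type and less RNA per cell cannot be told apart.

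**Figure D1:**
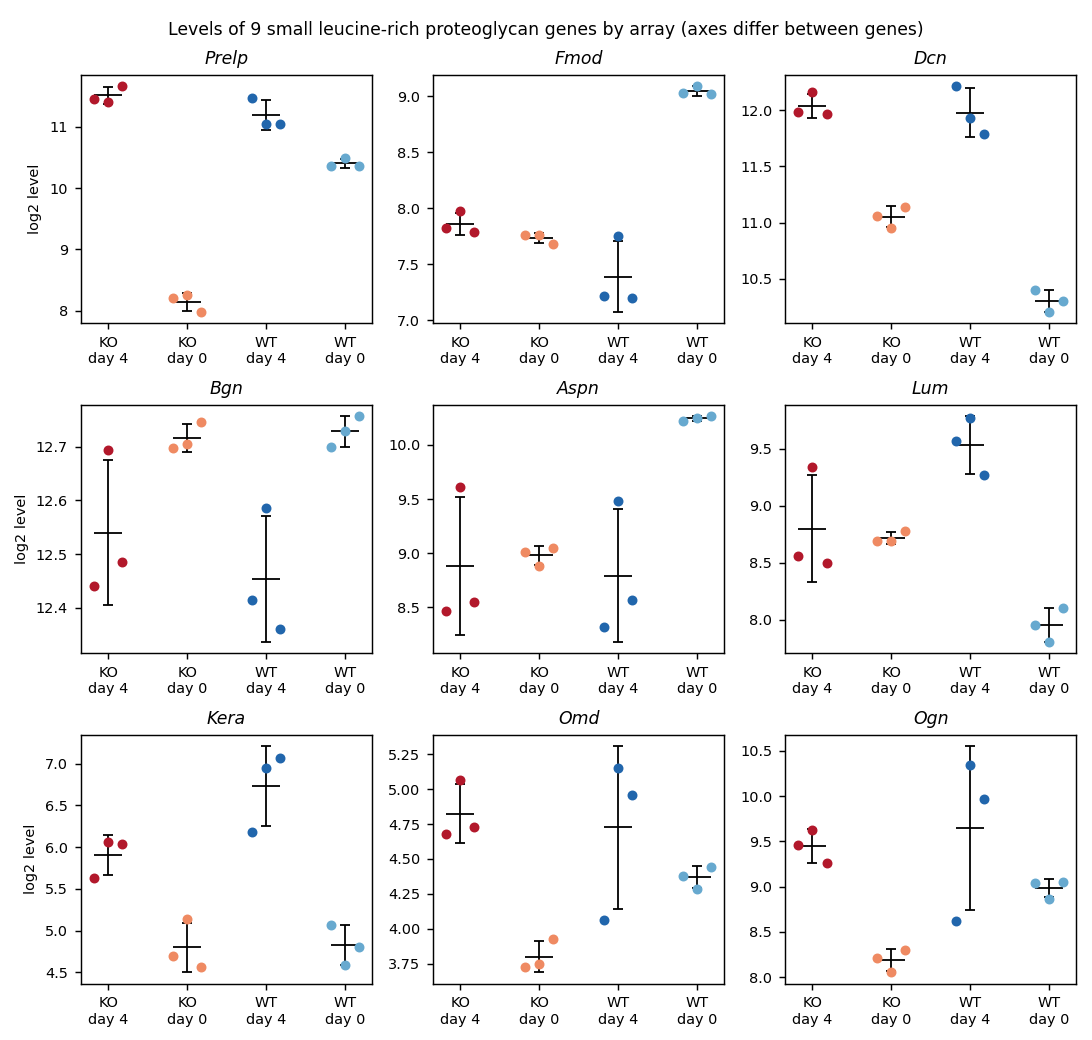
log2 levels of the 9 genes in each array, with 1 panel per gene and its own axis; points are arrays, black bars the mean ± SD of 3 arrays, with KO day 4, KO day 0, WT day 4 and WT day 0 from left to right. KO day 0 stands lowest for Prelp (7.98 to 8.25), and WT day 0 stands highest for Fmod (9.02 to 9.09) and Aspn (10.22 to 10.27).

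Prelp, a heparin-binding member known from cartilage and basement membranes, had the widest range of the 9, 3.69 on the log2 scale. It gave 11.46, 11.41 and 11.67 in KO day 4 arrays, against 8.21, 8.25 and 7.98 in KO day 0 arrays. In WT cells it gave 11.47, 11.04 and 11.05 at day 4, against 10.36, 10.49 and 10.36 at day 0. The KO day 0 arrays stood alone at the bottom, and the day 4 arrays of both genotypes overlapped. Prelp rose by 3.36 ± 0.12 in KO cells (SE, n = 3 per group, 10.3-fold, adjusted p = 4.92e-09) and by 0.78 ± 0.12 in WT cells (1.72-fold, adjusted p = 0.00045). The difference of these changes, KO minus WT, was 2.58 ± 0.17 (adjusted p = 5.14e-05). At day 0 KO cells stood 4.79-fold below WT cells (-2.26 ± 0.12, adjusted p = 2.08e-06). At day 4 KO minus WT was 0.32 ± 0.12 and did not pass (95% interval 0.06 to 0.59, adjusted p = 0.0836). It passed without WT day 4 array 1 (0.46, adjusted p = 0.00587).

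The other Prelp probe set did not show the low KO day 0 arrays or the difference of changes. It gave 5.97, 5.78 and 6.09 in KO day 4 arrays and 5.40, 5.69 and 5.70 in KO day 0 arrays, against 6.13, 5.84 and 5.68 in WT arrays at day 4 and 5.61, 5.38 and 5.45 in WT day 0 arrays. Within each genotype its day 4 arrays lay above its day 0 arrays. In a fit to all 41345 probe sets its KO minus WT difference at day 0 was 0.11 ± 0.13 (adjusted p = 0.829), against -2.26 ± 0.13 for the chosen probe set. Its difference of day 4 changes was -0.05 ± 0.19 (adjusted p = 0.948), against 2.58 ± 0.18. The share of all probe sets that passed in this fit was 21.8% and 14% for the KO and WT day 4 changes, 2.73% and 12.4% for KO minus WT at day 0 and day 4, and 1.22% for the difference of changes. What this second probe set reads is not given in the sources used here, and the Prelp values above rest on the brighter one.

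Fmod, which binds type I collagen and takes part in its crosslinking in tendon, went the other way from its neighbour Prelp in WT cells. It gave 7.83, 7.97 and 7.79 in KO day 4 arrays, against 7.76, 7.76 and 7.68 in KO day 0 arrays. In WT cells it gave 7.22, 7.75 and 7.20 at day 4, against 9.03, 9.09 and 9.02 at day 0. The WT day 0 arrays stood alone at the top. Fmod fell 3.15-fold in WT cells (-1.66 ± 0.13, adjusted p = 1.74e-06), and in KO cells its change was 0.13 ± 0.13 (95% interval -0.14 to 0.40, adjusted p = 0.493). The difference of changes was 1.78 ± 0.18 (adjusted p = 0.000354). KO cells stood 2.48-fold below WT cells at day 0 (-1.31 ± 0.13, adjusted p = 5.95e-05) and 1.39-fold above them at day 4 (0.47 ± 0.13, adjusted p = 0.0181). Leaving out WT day 4 array 3 or KO day 4 array 2 ended the day 4 call (adjusted p = 0.0824 and 0.0604). The second Fmod probe set moved alike, with -1.59 ± 0.14 in WT cells, -0.01 ± 0.14 in KO cells and a difference of changes of 1.58 ± 0.20 (adjusted p = 0.0068 over all probe sets).

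**Figure D2:**
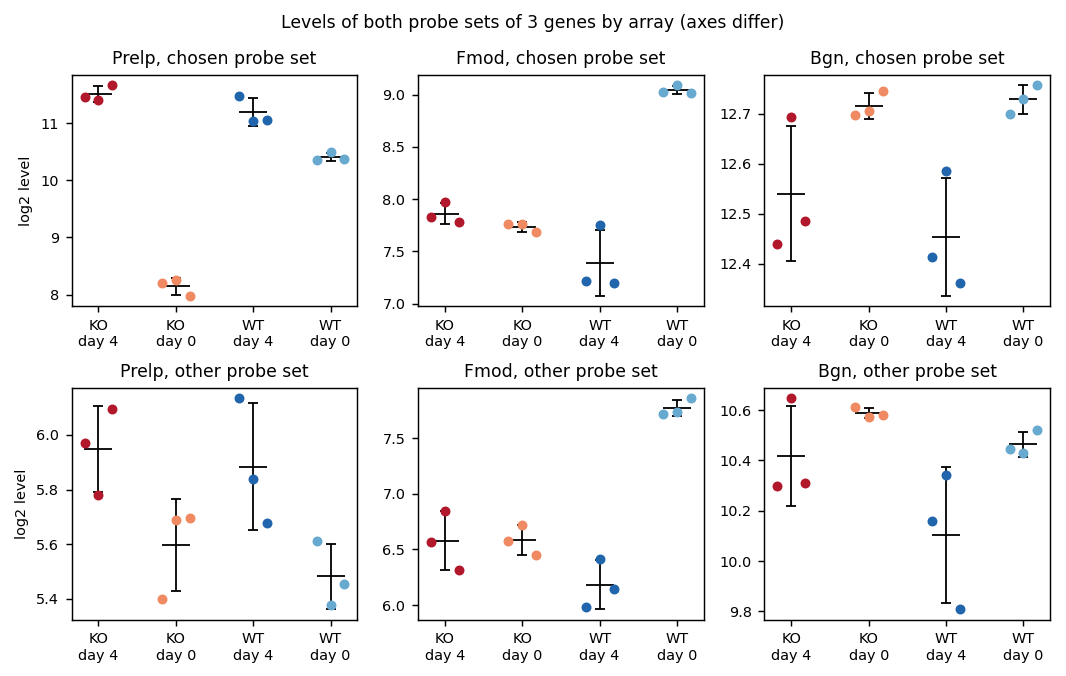
log2 levels of both probe sets of Prelp, Fmod and Bgn by array, with the probe set of highest mean in the upper row; points are arrays and black bars the mean ± SD of 3 arrays. The probe sets of Fmod share the high WT day 0 arrays, whereas the second Prelp probe set lacks the low KO day 0 arrays of the chosen one (5.40 to 5.70, against 5.38 to 5.61 in WT day 0 arrays).

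The RefSeq start windows of Prelp and Fmod, neighbours whose levels moved differently, are shown for their sequence (GRCm38.p6, 250 bases before and 50 after the start, 5′ to 3′ on the gene's strand). The Prelp window is chr1:133921352-133921651, minus strand, at a start inside the outer bounds of the gene, and the Fmod window is chr1:134037004-134037303, plus strand. Capitals mark CACCC, the box bound by Kruppel-like factors such as the transduced Klf4, on either strand.
Prelp: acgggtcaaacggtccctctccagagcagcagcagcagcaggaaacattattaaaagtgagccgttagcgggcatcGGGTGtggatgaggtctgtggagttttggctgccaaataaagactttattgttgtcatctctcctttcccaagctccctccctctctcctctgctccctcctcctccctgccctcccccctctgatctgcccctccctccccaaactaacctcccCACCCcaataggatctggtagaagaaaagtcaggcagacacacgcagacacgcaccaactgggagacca
Fmod: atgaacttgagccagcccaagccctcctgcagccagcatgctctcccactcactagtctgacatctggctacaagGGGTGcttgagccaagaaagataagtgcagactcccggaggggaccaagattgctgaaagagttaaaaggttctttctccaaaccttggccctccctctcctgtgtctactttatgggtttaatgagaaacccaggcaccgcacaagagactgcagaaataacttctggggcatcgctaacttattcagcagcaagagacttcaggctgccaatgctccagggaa
CACCC occurred 2 times in the Prelp window and 1 time in that of Fmod. It was found in 57.5% of all 32851 windows of this length in the table. Neither window held TATAAA (the TATA box, 13.6% of all windows), TGANTCA (AP-1, 7.81%) or GGAATG (TEAD, 14.7%), searched on both strands.

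Dcn, which carries a single chondroitin or dermatan sulfate chain and limits the width of collagen fibrils, rose in both genotypes. It gave 11.99, 12.16 and 11.97 in KO day 4 arrays, against 11.06, 10.95 and 11.14 in KO day 0 arrays. In WT cells it gave 12.22, 11.93 and 11.79 at day 4, against 10.40, 10.20 and 10.30 at day 0. The day 4 arrays of both genotypes overlapped at the top, the KO day 0 arrays came next and the WT day 0 arrays were lowest, with no overlap between these 3 steps. Dcn rose 1.98-fold in KO cells (0.99 ± 0.11, adjusted p = 2.67e-05) and 3.21-fold in WT cells (1.68 ± 0.11, adjusted p = 6.62e-07). KO cells stood 1.68-fold above WT cells at day 0 (0.75 ± 0.11, adjusted p = 0.00124) and 0.06 ± 0.11 above them at day 4 (95% interval -0.18 to 0.29, adjusted p = 0.767). The difference of changes was -0.70 ± 0.15 (adjusted p = 0.0273). That last call was lost without WT day 0 array 2 or 3, KO day 0 array 1 or 3, or KO day 4 array 1 or 3, with adjusted p between 0.0623 and 0.0754.

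Bgn, the class I member with a pair of sulfate chains that also signals through Toll-like receptors, had the narrowest range, 0.40. It gave 12.44, 12.69 and 12.49 in KO day 4 arrays and 12.70, 12.70 and 12.75 in KO day 0 arrays, against 12.41, 12.59 and 12.36 in WT arrays at day 4 and 12.70, 12.73 and 12.76 in WT day 0 arrays. The day 0 arrays of both genotypes overlapped and lay just above all day 4 arrays. Bgn fell 1.21-fold in WT cells (-0.27 ± 0.09, adjusted p = 0.0337) and in KO cells the change was -0.18 ± 0.09 (adjusted p = 0.144). The WT call was lost without WT day 0 array 1, 2 or 3 or WT day 4 array 1 or 3 (adjusted p between 0.0696 and 0.121), and in KO cells the change passed without KO day 4 array 2 (-0.25, adjusted p = 0.0395). KO minus WT was 0.09 ± 0.09 at day 4 (95% interval -0.10 to 0.27) and -0.01 ± 0.09 at day 0 (-0.20 to 0.17), and neither passed (adjusted p = 0.529 and 0.973). For the second Bgn probe set KO minus WT was 0.31 ± 0.13 at day 4 and 0.12 ± 0.13 at day 0 (adjusted p = 0.153 and 0.798 over all probe sets), and its day 0 arrays did not overlap (10.57 to 10.61 in KO, against 10.43 to 10.52 in WT).

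Lum, which spaces collagen fibrils in the cornea and skin, rose in WT cells, did not pass in KO cells, and had a difference of changes that passed. It gave 8.56, 9.34 and 8.50 in KO day 4 arrays, against 8.69, 8.69 and 8.78 in KO day 0 arrays. In WT cells it gave 9.56, 9.77 and 9.27 at day 4, against 7.95, 7.80 and 8.10 at day 0. KO day 4 array 2 stood with the WT day 4 arrays and above the other KO arrays. Lum rose 2.99-fold in WT cells (1.58 ± 0.19, adjusted p = 6.25e-05), against 0.08 ± 0.19 in KO cells (95% interval -0.34 to 0.49, adjusted p = 0.809), with a difference of changes of -1.50 ± 0.27 (adjusted p = 0.0104). KO minus WT was 0.77 ± 0.19 at day 0 (adjusted p = 0.0336) and -0.74 ± 0.19 at day 4 (adjusted p = 0.0164). The day 0 call was lost without any 1 of the 6 day 0 arrays (adjusted p between 0.0629 and 0.136), and the day 4 call without WT day 4 array 2 or KO day 4 array 1 or 3 (adjusted p between 0.0669 and 0.0675).

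Kera, a keratan sulfate proteoglycan of the corneal stroma, rose in both genotypes. It gave 5.63, 6.06 and 6.04 in KO day 4 arrays, against 4.69, 5.14 and 4.57 in KO day 0 arrays. In WT cells it gave 6.18, 6.94 and 7.06 at day 4, against 5.07, 4.59 and 4.81 at day 0. All day 4 arrays were above all day 0 arrays, and at day 4 the WT arrays were above the KO arrays. Kera rose 2.16-fold in KO cells (1.11 ± 0.22, adjusted p = 0.00205) and 3.74-fold in WT cells (1.90 ± 0.22, adjusted p = 5.03e-05). KO minus WT was -0.82 ± 0.22 at day 4 (adjusted p = 0.021) and -0.02 ± 0.22 at day 0 (95% interval -0.51 to 0.46, adjusted p = 0.98). The day 4 call was lost without WT day 4 array 2 or 3 or KO day 4 array 1 (adjusted p between 0.0793 and 0.0943). For the difference of changes the value was -0.79 ± 0.32 (adjusted p = 0.186), and it passed without WT day 4 array 1 (-1.07, adjusted p = 0.0183). Dcn, Lum and Kera, the row on chromosome 10, thus all rose in WT cells, and Dcn and Kera rose in KO cells.

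**Figure D3:**
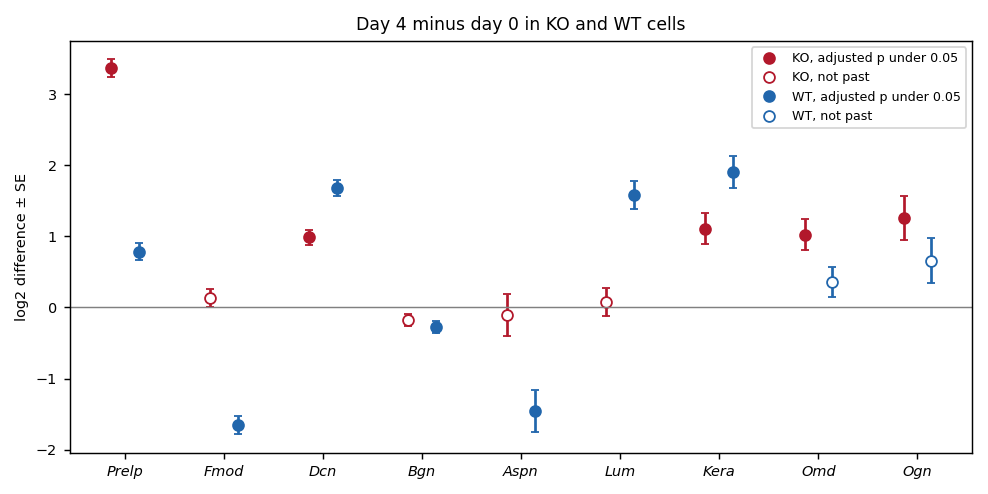
log2 change from day 0 to day 4 of the 9 genes in KO cells (red) and WT cells (blue), with the SE of the model over 3 arrays per group; filled points passed an adjusted p under 0.05 over all genes. KO stands above WT for Prelp (3.36 and 0.78) and Fmod (0.13 and -1.66) and below it for Lum (0.08 and 1.58) and Dcn (0.99 and 1.68).

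Aspn, a class I member that binds collagen and TGF-beta and lacks the sulfate chain of Dcn, fell in WT cells where its neighbours on chromosome 13 did not pass. It gave 8.47, 9.61 and 8.55 in KO day 4 arrays, against 9.02, 8.88 and 9.05 in KO day 0 arrays. In WT cells it gave 8.32, 9.49 and 8.57 at day 4, against 10.22, 10.25 and 10.27 at day 0. The WT day 0 arrays stood alone at the top, and array 2 was the highest in both day 4 groups. Aspn fell 2.74-fold in WT cells (-1.45 ± 0.30, adjusted p = 0.00295), against -0.10 ± 0.30 in KO cells (95% interval -0.74 to 0.54, adjusted p = 0.838). At day 0 KO cells stood 2.40-fold below WT cells (-1.26 ± 0.30, adjusted p = 0.0237), a call lost without any 1 of the 6 day 0 arrays (adjusted p between 0.0698 and 0.0908) although the difference stayed between -1.30 and -1.21. This SE is shared by all groups. The SD of Aspn was 0.09 in KO day 0 and 0.02 in WT day 0 arrays, against 0.64 in KO and 0.61 in WT arrays at day 4. At day 4 KO minus WT was 0.09 ± 0.30 (adjusted p = 0.873). The difference of changes, 1.35 ± 0.42, missed the threshold (adjusted p = 0.0939). It was 1.70 with WT day 4 array 2 left out (adjusted p = 0.0223) and 1.33 with array 2 of both day 4 groups left out (adjusted p = 0.000988), the last a setting added once the data had been seen.

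Omd, known from mineralised matrix and osteoblasts, and Ogn, also named mimecan, rose in KO cells. Omd gave 4.68, 5.06 and 4.73 in KO day 4 arrays and 3.72, 3.75 and 3.93 in KO day 0 arrays, against 4.06, 5.15 and 4.96 in WT arrays at day 4 and 4.38, 4.29 and 4.44 in WT day 0 arrays. Ogn gave 9.46, 9.63 and 9.26 in KO day 4 arrays and 8.21, 8.05 and 8.30 in KO day 0 arrays, against 8.62, 10.34 and 9.97 in WT arrays at day 4 and 9.04, 8.87 and 9.05 in WT day 0 arrays. For both genes the KO day 0 arrays were the lowest of all, and WT day 4 array 1 stood below the WT day 0 arrays while the other WT day 4 arrays stood above them. The KO day 0 levels of Omd lay around the floor level of 3.75, so its fold is over a group near the floor. Omd rose 2.03-fold (1.02 ± 0.22, adjusted p = 0.00277) and Ogn 2.39-fold (1.26 ± 0.31, adjusted p = 0.00775) in KO cells. In WT cells the changes were 0.36 ± 0.22 (adjusted p = 0.294) and 0.66 ± 0.31 (adjusted p = 0.167). Without WT day 4 array 1 they were 0.69 (adjusted p = 0.00125) and 1.17 (adjusted p = 5.39e-05). The difference of changes was 0.67 ± 0.30 for Omd and 0.60 ± 0.44 for Ogn, neither past the threshold (adjusted p = 0.256 and 0.513).

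KO minus WT at day 0 was -0.57 ± 0.22 for Omd (adjusted p = 0.183) and -0.80 ± 0.31 for Ogn (adjusted p = 0.202), with arrays that did not overlap. Both passed in a fit without WT day 4 array 1 (adjusted p = 0.00466 and 0.000908), which left the values themselves as they were. At day 4 KO minus WT was 0.10 ± 0.22 for Omd (95% interval -0.37 to 0.56, adjusted p = 0.797) and -0.19 ± 0.31 for Ogn (-0.87 to 0.48, adjusted p = 0.713). Without WT day 4 array 1 the Ogn difference was -0.71 (adjusted p = 0.00204).

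The start windows of the 3 neighbours on chromosome 13 are shown because Aspn fell in WT cells where Omd and Ogn did not pass. They are chr13:49544193-49544492, plus strand for Aspn, chr13:49582212-49582511, plus strand for Omd and chr13:49607765-49608064, plus strand for Ogn, from the same RefSeq table. Capitals mark TATAAA (the TATA box), CACCC (the Kruppel-like factor box) or GGAATG (the TEAD site) on either strand.
Aspn: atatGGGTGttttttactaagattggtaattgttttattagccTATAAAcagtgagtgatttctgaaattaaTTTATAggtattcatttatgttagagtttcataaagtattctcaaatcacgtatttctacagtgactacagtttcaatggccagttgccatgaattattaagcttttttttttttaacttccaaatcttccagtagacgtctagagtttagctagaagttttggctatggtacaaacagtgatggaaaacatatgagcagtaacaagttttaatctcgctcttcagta
Omd: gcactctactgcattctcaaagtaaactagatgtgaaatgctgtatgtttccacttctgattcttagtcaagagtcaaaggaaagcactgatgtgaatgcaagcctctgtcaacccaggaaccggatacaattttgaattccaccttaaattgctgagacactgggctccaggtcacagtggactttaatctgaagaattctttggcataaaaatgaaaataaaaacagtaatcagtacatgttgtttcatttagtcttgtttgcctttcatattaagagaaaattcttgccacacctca
Ogn: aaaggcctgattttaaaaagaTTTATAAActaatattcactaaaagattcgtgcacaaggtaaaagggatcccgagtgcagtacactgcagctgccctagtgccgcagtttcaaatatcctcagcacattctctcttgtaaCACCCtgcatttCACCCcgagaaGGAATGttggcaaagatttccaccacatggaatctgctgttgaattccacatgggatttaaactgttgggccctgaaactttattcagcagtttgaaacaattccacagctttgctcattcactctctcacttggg
TATAAA matched 2 times in the Aspn window, and 2 times in that of Ogn, where the matches on opposite strands overlap. Counted from the gene start, they began at -207 and -178 in Aspn and at -229 and -227 in Ogn, with -178 and -229 on the opposite strand. Whether any of them acts as a TATA box was not tested. CACCC matched 1 time in Aspn, 0 times in Omd and 2 times in Ogn, and GGAATG matched 1 time, in Ogn. The Omd window held none of the 4 motifs. In all, 7 of the 9 genes had a window, of which 5 held CACCC, 2 held TATAAA, 1 held GGAATG and 0 held TGANTCA. The E-box CANNTG, found in 72.3% of all windows, was in 5 of the 7.

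KO and WT cells differed for 5 of the 9 genes at day 0 and for 3 at day 4. With the day 4 groups fitted on their own, none of the 3 passed (adjusted p = 0.101 for Fmod, 0.0881 for Lum and 0.0678 for Kera), and with 1 array left out in turn the day 0 count ran from 1 to 2 higher and from 2 to 5 lower. With the day 0 groups fitted on their own, 5 genes were lower in KO cells. At day 0 KO cells were higher for 2 genes (Dcn and Lum) and lower for 3 (Aspn, Fmod and Prelp), where 5.6% of all genes passed, 2.48% higher and 3.12% lower. The arrays did not overlap for 7 of the 9, against 29.5% of all genes. At day 4 KO cells were higher for 1 gene (Fmod) and lower for 2 (Lum and Kera), where 20.7% of all genes passed, 8.34% higher and 12.4% lower, and the arrays did not overlap for 2 of the 9, against 31.6%. Calls of at least 2-fold numbered 3 at day 0 (Prelp, Fmod and Aspn), against 1.23% of all genes, and 0 at day 4, against 1.49%. The difference of day 4 changes passed for 4 genes, higher in KO for Fmod and Prelp and lower for Dcn and Lum, where 3.95% of all genes passed, 2.15% higher and 1.81% lower. Of these, 3 were at least 2-fold, against 0.807% of all genes. Nearest the threshold, the last gene called and the first not called were Ogn and Bgn for the KO day 4 change (adjusted p = 0.00775 and 0.144), Bgn and Ogn for the WT day 4 change (0.0337 and 0.167), Lum and Omd at day 0 (0.0336 and 0.183), Kera and Prelp at day 4 (0.021 and 0.0836), and Dcn and Aspn for the difference of changes (0.0273 and 0.0939). The day 0 arrays enter the day 4 changes too, so these comparisons are not independent.

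**Figure D4:**
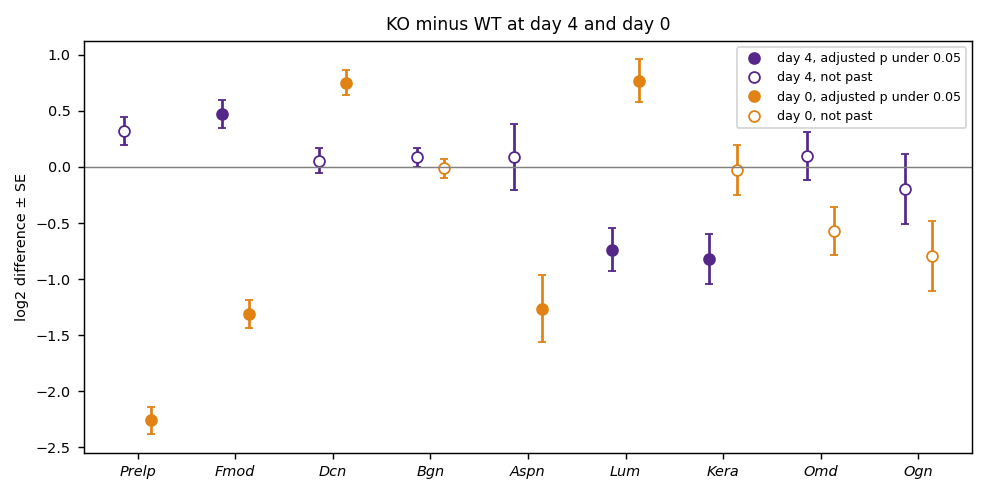
KO minus WT on the log2 scale for the 9 genes at day 4 (purple) and day 0 (orange), with the SE of the model over 3 arrays per group; filled points passed an adjusted p under 0.05 over all genes. Differences run from -0.82 (Kera) to 0.47 (Fmod) at day 4 and from -2.26 (Prelp) to 0.77 (Lum) at day 0.

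The SD within a group (n = 3) had a median over the 9 genes of 0.19 for KO day 4 and 0.09 for KO day 0, against 0.31 for WT day 4 and 0.08 for WT day 0. The fit shares 1 spread per gene across all groups, so the tests at day 0 take in the wider spread at day 4. Ogn had the highest SD, 0.91 in WT day 4 arrays, and Aspn had 0.64 in KO day 4 and 0.61 in WT day 4 arrays. Array 2 was the highest of its group for 8 of 9 genes in KO day 4 and for 6 of 9 in WT day 4. Array 3 was the highest for 6 of 9 in KO day 0 and for 5 of 9 in WT day 0. The share over all genes was not computed, so these counts do not show whether the 9 genes differ from others in this. With array 2 of both day 4 groups left out, the same added setting, the KO day 4 change of Aspn was -0.47 and passed (adjusted p = 0.00328), and that of Bgn was -0.25 (adjusted p = 0.0235).

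Markers of other cell types were read beside these genes. The adipocyte, endothelial, keratinocyte, skeletal muscle and neural lists are not described here. All 10 macrophage markers of a fixed list were lower in KO than in WT cells at both days, by -3.23 to -0.65 at day 4 (median -1.45) and by -3.12 to -0.82 at day 0 (median -1.48), with C1qb, a complement subunit made by macrophages, furthest down at -3.23 and -3.12. Of all genes, 12.4% were lower in KO cells at day 4 and 3.12% at day 0. The mean level of the list ran from 5.06 to 5.12 in KO day 4 and from 5.01 to 5.12 in KO day 0 arrays, against 6.44 to 6.79 in WT day 4 and 6.59 to 6.69 in WT day 0 arrays, and 0 of the 10 lay near the floor. Its part in the genotype differences above was not tested. From day 0 to day 4 the list had 0 of 10 past in KO cells and 1 higher (Cd68, 0.42) and 2 lower (Csf1r, -0.65, and C1qa, -0.48) in WT cells. Over all genes 30.8% passed in KO cells and 22.9% in WT cells. Fibroblast markers were lower at day 4 for 6 of 12 and higher for 0, in KO cells as in WT cells, against 16.9% and 11.7% of all genes lower, with Pdgfrb, a receptor of mesenchymal cells, at -0.90 and -1.03.

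Of 6 tendon cell markers, a list that holds Fmod and Kera, 2 rose and 2 fell in KO cells and 2 rose and 4 fell in WT cells, where 30.8% and 22.9% of all genes passed, shares that apply to the next lists too. Tnmd, a membrane protein of tendon cells, changed by -2.43 in KO cells and -2.75 in WT cells, and Mkx, a homeobox factor of tendon, by 0.94 and 0.82. Scx, a transcription factor of tendon, changed by -0.57 and -0.65. Osteoblast markers, 6 measured of which 3 lay near the floor, had 0 higher and 1 lower in KO cells (Sp7, -0.69) and 2 higher and 1 lower in WT cells (Phex 0.74, Alpl 0.52 and Sp7 -0.57). Their mean level ran from 3.88 to 4.16 in KO day 4 and 4.04 to 4.15 in KO day 0 arrays, against 4.04 to 4.25 in WT day 4 and 3.97 to 4.15 in WT day 0 arrays. Chondrocyte markers had 1 higher and 2 lower of 9 in KO cells (Hapln1 1.16, Sox9 -1.32 and Acan -0.82) and 1 higher and 4 lower in WT cells (Hapln1 0.74, Acan -1.60, Sox9 -0.73, Col2a1 -0.49 and Matn3 -0.39), with 2 of the 9 near the floor. Of 4 keratocyte markers, a list that holds Kera, 2 rose and 0 fell in KO cells as in WT cells. The other that rose was Aldh3a1 (4.15 in KO and 4.17 in WT cells). The part of these cell types in the results was not tested.

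Other genes of the same matrix were read from fixed lists, against the shares of all genes given above. Fibrillar collagens, which the 9 proteins bind, fell for 7 of 11 and rose for 0 in KO cells (median -0.49), with 8 lower and 0 higher in WT cells (median -0.54). The 3 measured chains of type V collagen all fell, with Col5a3 at -1.20 ± 0.13 in KO cells and -1.01 ± 0.13 in WT cells (adjusted p = 2.25e-05 and 0.000102). Among 8 other small leucine-rich proteoglycans, Podn, a class V member, rose in KO cells (0.96 ± 0.16, adjusted p = 0.000525), whereas Podnl1 and Chad fell (-1.36 and -0.42). In WT cells Epyc, the next gene after Kera on chromosome 10, rose (0.87 ± 0.25, adjusted p = 0.0214), whereas Podnl1 and Optc fell (-1.50 and -0.80). At day 0 KO cells were lower for Podn (-1.63 ± 0.16, adjusted p = 7.49e-05) and Optc (-0.43), the neighbour of Prelp on chromosome 1, and higher for Podnl1 (0.78). The difference of changes was higher in KO for Podn (1.01 ± 0.23, adjusted p = 0.0289) and Optc (0.66 ± 0.16, adjusted p = 0.0411). At day 4 KO minus WT was 0.93 for Podnl1 and 0.26 for Nyx, and it was -1.18 for Epyc, -0.62 for Podn and -0.59 for Ecm2, the neighbour of Aspn.

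Enzymes that build chondroitin and dermatan sulfate chains fell for 11 of 20 and rose for 2 in KO cells (median -0.35) and 8 lower and 1 higher in WT cells (median -0.17). Chst11, a chondroitin 4-O-sulfotransferase, changed by -1.08 ± 0.08 in KO cells and -0.66 ± 0.08 in WT cells (adjusted p = 1.5e-06 and 6.86e-05). Chpf, a chondroitin polymerising factor, changed by -0.94 and -0.95. The higher ones were the sulfotransferases Chst3 and Chst7 in KO cells (0.48 and 0.69) and Chst3 in WT cells (0.60), and like all genes on the smaller side of a list they are named after their values were seen. Of 8 keratan sulfate genes, Chst2, a sulfotransferase, changed by -2.05 ± 0.20 in KO cells and -1.54 ± 0.20 in WT cells (adjusted p = 1.05e-05 and 0.000103). B3gnt2 and B4galt4, glycosyltransferases, rose in KO cells (0.60 and 0.65), and in WT cells Chst1 fell (-0.61) and Chst4 rose (0.31).

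**Figure D5:**
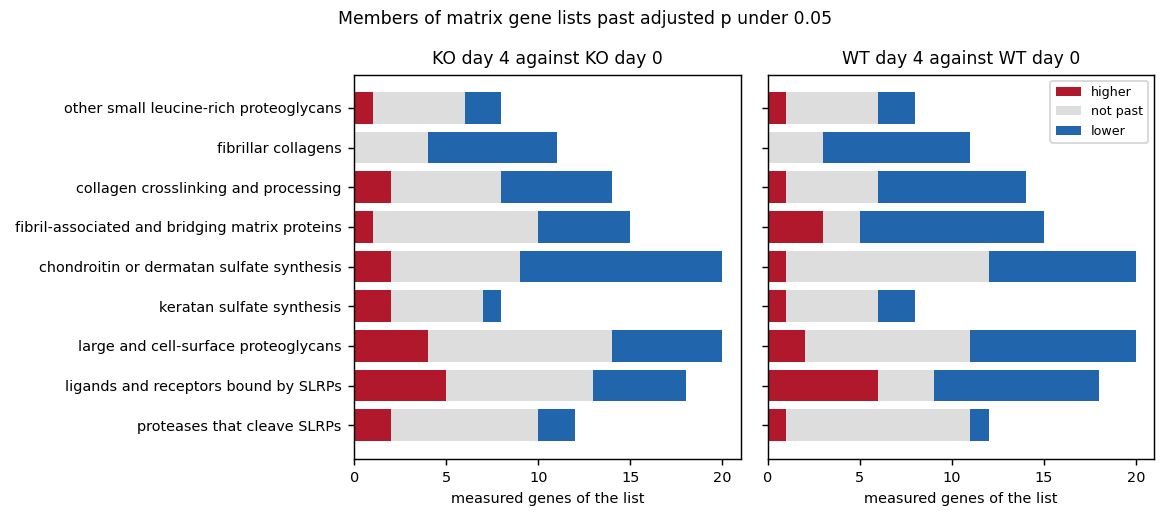
Number of measured genes of 9 matrix gene lists that were higher (red), not past (grey) or lower (blue) at an adjusted p under 0.05 over all genes, for KO day 4 against KO day 0 (left) and WT day 4 against WT day 0 (right). Fibrillar collagens have no higher gene in either panel, with 7 and 8 of 11 lower.

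Genes of collagen crosslinking and processing fell for 6 of 14 and rose for 2 in KO cells, with 8 lower and 1 higher in WT cells. Loxl3, a lysyl oxidase, changed by -0.90 in KO cells and -1.72 in WT cells. The difference of changes passed for Loxl3 (0.82, adjusted p = 0.035), for Loxl4 (1.07, adjusted p = 0.00125) and for the procollagen C-proteinase enhancer Pcolce2 (-0.57, adjusted p = 0.0378). Fibril-associated proteins fell for 5 of 15 and rose for 1 in KO cells, with 10 lower and 3 higher in WT cells. The glycoprotein Tnc changed by -0.95 in KO cells and -1.72 in WT cells. The higher ones were Tnxb in KO cells (0.47) and Tnxb, Col14a1 and Matn2 in WT cells (1.01, 0.97 and 0.40). Col6a3, a chain of type VI collagen, was the 1 gene of this list whose difference of changes passed (0.49, adjusted p = 0.043). Large and cell-surface proteoglycans fell for 6 of 20 and rose for 4 in KO cells, with 9 lower and 2 higher in WT cells, and their difference of changes was higher in KO for 5 genes, Cspg4 (1.41 ± 0.12, adjusted p = 0.000224), Acan (0.79), Gpc3 (0.72), Sdc2 (0.51) and Cd44 (0.43).

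Of 18 ligands and receptors that these proteins bind, 5 were higher and 5 lower in KO cells, and 6 higher and 9 lower in WT cells. Ccn2, a matricellular TGF-beta target, changed by -1.48 ± 0.21 in KO cells and -2.68 ± 0.21 in WT cells (adjusted p = 0.00019 and 2.52e-06). Tgfb1 changed by -0.94 and -1.22, and Tgfb2, which rose, by 0.51 and 0.64. Met, the receptor of hepatocyte growth factor, which Dcn can bind, rose by 0.91 ± 0.09 in KO cells and by 0.41 ± 0.09 in WT cells (adjusted p = 1.54e-05 and 0.00554), and it was higher in KO at day 4 (1.27) and at day 0 (0.77). Of the same list, Ccn2 and Igf1r were also higher in KO at day 4 (0.74 and 0.22) and Tgfb2 and C1qa lower (-0.81 and -0.65). At day 0 Met was the 1 gene higher, and 4 were lower, C1qa (-1.02), Tgfb2 (-0.68), Tgfb3 (-0.70) and Bmp4 (-0.87). C1qa is also in the macrophage list above, so its values are the same result given again. Ccn2 (1.20, adjusted p = 0.0462) and the collagen receptor subunit Itga2 (-0.75, adjusted p = 0.0376) passed in the difference of changes. Of 12 proteases that cleave the family, Adamts5 rose in KO cells (1.46 ± 0.12, adjusted p = 3.82e-06) with a difference of changes of 1.19 ± 0.18 (adjusted p = 0.00408). Mmp2, a gelatinase, rose in both (0.34 in KO and 0.84 in WT cells), Adamts4 fell in both (-0.69 and -0.71), and Mmp14 fell in KO cells (-0.64). KO minus WT passed for 5 proteases at day 4, 4 higher and 1 lower, and for 6 at day 0, 4 higher and 2 lower. Mmp3 and Mmp13, a stromelysin and a collagenase, were higher in KO at day 4 (2.75 ± 0.87 and 2.45 ± 0.59, adjusted p = 0.041 and 0.0107) and at day 0 (4.66 ± 0.87 and 2.92 ± 0.59, adjusted p = 0.00626 and 0.00963). Htra1 and Adamts5 were also higher at day 4 (0.55 and 0.40) and Mmp14 was lower (-0.63), and at day 0 Mmp12 and Mmp2 were also higher (1.08 and 0.43) and Adamts5 and Adamts1 lower (-0.79 and -0.79).

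The genes most like each member but Bgn, whose range was under 1, by Pearson's r over the 12 arrays among 3411 genes with a range of at least 1, are given as a description, since the arrays form 4 groups. Dcn was most like Oplah (0.99), Ypel3 (0.98) and Igfbp3 (0.98), the last an insulin-like growth factor binding protein. Prelp was most like Trim16 (0.98), Exoc6 (0.97) and Plcl1 (0.96). Aspn was most like Spry1, an inhibitor of ERK signalling (0.96), Erfe (0.95) and Prkg1 (0.94). Fmod was most like Cpa4 (0.96), Slc1a6 (0.96) and Aoc3 (0.95). Kera was most like the transcription factor Nfia (0.97), Gpr165 (0.96) and Pi16 (0.95). Lum had the least close matches, Atp6v0e2 (0.89), Gdpd2 (0.89) and Nt5e (0.87). Omd and Ogn, neighbours on chromosome 13, were each other's closest match (0.97). Omd was next most like Slc40a1, the iron exporter (0.97), and Egfl6 (0.96), and Ogn like Adgrg2 (0.96) and B4galt4 (0.96).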

How the data were processed

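Per the labels, each of 12 RNA samples was hybridised, after biotin labelling, to its own 1-colour Affymetrix array. The authors deposited log2 levels for 41345 probe sets, between 1.33 and 13.35, made with Affymetrix Expression Console per the submitters' processing notes; no source used here gives its version or how it corrected, normalized and summarised the probes. Arrays give no count or depth, and their number limits the precision. Probe sets with 1 symbol in the platform annotation numbered 23521, with several 1814 and with none 16010; the brightest per symbol by the mean of 12 arrays gave 22180 genes. No filter or further normalization was applied, and 0 columns of other samples were present. limma 3.58.1 in R 4.3.3 fitted 4 group means to all 12 arrays, with 8 residual and 4.56 prior degrees of freedom. Tests were two-sided, with Benjamini-Hochberg adjustment over all genes and a threshold of 0.05. Errors are standard errors of the model unless called SD. The model was tested on simulated data with independent noise, of 1 size per gene in all groups. That setting does not cover the wider spread of the day 4 arrays, so it does not check the shared spread. Named were the 9 members, for each list and comparison described all genes past the threshold where 5 or fewer passed and otherwise up to 4 with the smallest p, and the 3 genes most like each member but Bgn; genes given beyond this rule were chosen after their values were seen. The members and lists were chosen with earlier results of these data known. Sequences are RefSeq windows of GRCm38.p6 from the table given, which held 7 of the 9 genes; protein sequences were not used here. Replicate numbers were not used to pair the samples, since the labels do not say what same-numbered samples share. Correlations of same-numbered deviations across genes ran from -0.06 to 0.18, the highest for array 2 of KO and WT cells at day 4. In that comparison 2 of 3 arrays correlated best with their own number. These values do not show whether same-numbered samples were paired.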

Additional observations from a re-analysis of the deposited data

Results flagged for a closer look

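The day 4 change differed between KO and WT cells, by the test of the difference itself, for 4 of the 9 genes. KO minus WT was 2.58 for Prelp, 1.78 for Fmod, -0.70 for Dcn and -1.50 for Lum on the log2 scale. The Dcn call (adjusted p = 0.0273) was lost in 6 of the 12 fits with 1 array left out and over all probe sets (adjusted p = 0.0651). The second probe set of Prelp gave -0.05, and that of Fmod gave 1.58.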

How the results depend on the processing

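Every member was refitted under each alternative, which gave 981 values over the 5 comparisons. Of these, 896 kept their direction and their side of the threshold, 43 lost the call, 21 gained one and 21 turned direction. Many refits could not change a member's log2 difference, so there only the call could move. They are the filter on dim genes, the fit over all probe sets, the trended robust prior and the replicate block. The groups fitted on their own, and arrays left out that lie outside a comparison, are such refits too. The 896 is thus no measure of how stable the directions are. The calls of Prelp and Fmod in the day 4 changes, at day 0 and in the difference of changes held under every refit, but Prelp's WT change (1.72-fold) is under a 2-fold minimum. Each refit used the brighter Prelp probe set, alone or averaged with the other, so none tests the second probe set on its own. That second probe set did not pass at day 0 or in the difference of changes, as given above. With the replicate number as a replicate block the counts of members were 5 higher and 0 lower for KO day 4, 4 and 3 for WT day 4, 2 and 3 at day 0, 1 and 2 at day 4, and 2 and 2 for the difference of changes, equal to those without it; in no comparison did every array correlate best with its own number.

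Counts moved as follows. For KO day 4 against day 0, 1 member (Bgn) was lower with quantile normalization and with a trended robust prior, and 2 (Aspn and Bgn) without array 2 of both day 4 groups. At day 0, 1 was higher over all probe sets and with the trended robust prior, 0 at a 2-fold minimum, and 5 were lower with array weights and with these 2 groups fitted on their own. At day 4, 0 were higher and 0 lower at a 2-fold minimum and with the 2 groups fitted on their own, and 1 was lower without array 2 of both groups. For the difference of changes, 1 was lower at a 2-fold minimum and over all probe sets. With 1 array left out in turn, the counts ran from 5 to 5 higher and 0 to 1 lower for KO day 4, 4 to 6 and 2 to 3 for WT day 4, 1 to 2 and 2 to 5 at day 0, 0 to 2 and 0 to 3 at day 4, and 2 to 3 and 1 to 3 for the difference of changes.

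Directions turned only among values that had not passed. In KO cells the change of Aspn ran from -0.47 to 0.10 and that of Lum from -0.19 to 0.23 with 1 array left out, and that of Lum was -0.19 without array 2 of both day 4 groups. At day 0 Bgn ran from -0.028 to 0.0014 and Kera from -0.19 to 0.10, and Bgn was 0.056 with the average of its probe sets. At day 4 Dcn ran from -0.039 to 0.175, Aspn from -0.28 to 0.43, Omd from -0.23 to 0.31 and Ogn from -0.71 to 0.16. With array weights Aspn was -0.18 and Omd -0.14 at day 4, and without array 2 of both groups Dcn was -0.030 and Ogn 0.066. The causes were not tested. Over all genes the count at day 0 was 1242, and 2562 with array weights, 2453 with the 2 groups fitted on their own, 769 to 826 without any 1 day 0 array and 1936 without WT day 4 array 1. At day 4 it was 4596, and 1923 with the 2 groups on their own, 2946 without WT day 4 array 3 and 2924 without array 2 of both groups. For the difference of changes it was 877, and 503 over all probe sets, 1852 with array weights, 2140 without WT day 4 array 1 and 395 without WT day 0 array 1.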
